A study of Mus musculus with 2 samples.

Results

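Macrophages and neutrophils are the main phagocytes of the gut wall, and 40 genes known from these cells were followed here in sorted intestinal stem cell preparations. The 40 genes were chosen by known cell type and with the signal values of these same 2 arrays already seen, so the differences between genotypes are given below as a description with no test. All 40 had 1 row of their own on the array, out of 30701 genes with such a row and 19228 protein-coding genes among them. They were set apart as 3 pan-leukocyte genes, 15 myeloid genes shared by macrophages and neutrophils, 19 macrophage genes and 3 neutrophil genes. The cells came from the small intestine of 8-week-old mice, either circPan3+/+;Lgr5GFP-CreERT2 or circPan3-/-;Lgr5GFP-CreERT2. Both genotypes carry the Lgr5GFP-CreERT2 allele, a knock-in that puts green fluorescent protein and a Cre recombinase under the Lgr5 promoter, and GFP-positive stem cells were enriched by flow sorting. circPan3 is a circular RNA made from the Pan3 gene. Total RNA of each genotype was hybridised to 1 Affymetrix Clariom D mouse array, so there is no spread between animals or arrays, no p-value and no error for any difference, and the sources used here do not say how many mice gave a sample.

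Macrophages of the gut wall arise from blood monocytes and live just beneath the epithelium, where they clear microbes and dead cells, while neutrophils enter from blood when tissue is injured or infected. Both sense microbes through surface lectins and Fc receptors, many of which have no signalling tail of their own and borrow an adaptor protein with a tyrosine activation motif (ITAM). Engulfed material is then attacked with oxidants from the NADPH oxidase and digested by lysosomal proteases. The transcription factor PU.1, the product of Spi1, is needed for both lineages and binds purine-rich DNA around the letters GAGGAA, and C/EBP factors act beside it. Intestinal epithelium itself expresses few of these genes; the lysozyme gene Lyz2 and lysosomal protease genes such as Ctss and Lgmn are less restricted to phagocytes.

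The 100 bases before the annotated start of 5 of the genes are printed to show such letters. They are from RefSeq (GRCm38.p6) and run 5′ to 3′ on the strand of the gene. Clec4e, Clec7a, Itgam and S100a8 were lower on the circPan3-/- array, and Lyz2 was nearly equal on both. The 5 were picked by hand, so nothing is read from which of them hold a match. Capitals mark GAGGAA or its reverse complement and TTGCNNAA, a form of the C/EBP site, on either strand. Clec4e lies on chr6:123289872-123289971 (minus strand), Clec7a on chr6:129472780-129472879 (minus), Itgam on chr7:128062540-128062639 (plus), S100a8 on chr3:90668971-90669070 (plus) and Lyz2 on chr10:117282273-117282372 (minus).
Clec4e: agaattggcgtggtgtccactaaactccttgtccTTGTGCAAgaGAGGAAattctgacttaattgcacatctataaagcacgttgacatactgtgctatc
Clec7a: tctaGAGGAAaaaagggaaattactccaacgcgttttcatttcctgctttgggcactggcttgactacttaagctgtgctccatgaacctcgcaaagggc
Itgam: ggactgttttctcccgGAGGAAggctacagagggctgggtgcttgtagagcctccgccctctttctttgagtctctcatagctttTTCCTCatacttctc
S100a8: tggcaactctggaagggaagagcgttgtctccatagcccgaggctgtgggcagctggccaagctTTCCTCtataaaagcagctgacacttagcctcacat
Lyz2: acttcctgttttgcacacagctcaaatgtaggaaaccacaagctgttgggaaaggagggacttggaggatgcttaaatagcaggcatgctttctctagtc

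A window of 250 bases before the start was held by RefSeq's table for 30 of the 40 genes, and the first listed was taken where there were several. GAGGAA stood on either strand in 16 of the 30 (53.3%), against 22.1% of 17492 windows of coding genes of the same length. In Clec4e it began 56 and 123 bases before the start, in Itgam 84 and 15, in Clec7a 96 and in S100a8 36 and 170, so the farther matches of Clec4e and S100a8 lie outside the stretches printed. The longer form GAGGAAGT, every match of which is also a match of GAGGAA, stood in 2 of 30 windows, those of C1qc and S100a8, against 2.18% of coding windows. TTGCNNAA stood in 4 of 30 (13.3%), those of Clec4e, Fcgr3, Cd68 and S100a9, against 9.11%. GAGGAA also stood before genes that differed by less than 2-fold between the arrays, namely Ptprc, Laptm5, C1qb, C1qc, Mrc1, Trem2 and Trem1. These matches are a description of letters. A link between matches and differences was not tested, and binding of a factor was not measured.

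Signals below are log2 values as deposited after RMA, an array summary that condenses a gene's probes into 1 value, and differences are circPan3-/- minus circPan3+/+. The median difference of all coding genes was 0.27, and that of 5222 rows named as negative controls was also 0.27, so a gene at 0 lies slightly under the common shift. The 95th percentile of the negative control rows, 5.06 on the circPan3+/+ and 5.56 on the circPan3-/- array, is called the control limit. A value under it cannot be told from those controls; a difference with 1 such value is followed by a bound ("at least"), measured from the brighter value to the other array's limit. Lgr5, the gene of the sort, had 10.91 on the circPan3+/+ and 7.02 on the circPan3-/- array, 14.8-fold lower (-3.89), and 18 coding genes had a lower difference. The epithelial gene Epcam had 8.51 and 9.65 (1.14, 2.21-fold higher). Both genes were above the limit on both arrays, but the gene of the sort itself was thus far from equal on them. Tied values were common on the circPan3+/+ array, where 69.1% of rows had at least 1 tie, and rare on the circPan3-/- array, at 4.20%; whether both went through the same processing is unknown. Of the 40 genes, 26 had a circPan3+/+ value of their own, and Trem2 shared its value with the most rows, 759 in all.

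Most of the macrophage and neutrophil genes had a lower signal in the circPan3-/- preparation. Of the 40, 26 were at least 2-fold lower, 0 were at least 2-fold higher and 14 were neither. Among all coding genes, 2.17% were at least 2-fold lower and 7.47% at least 2-fold higher, and among the 14870 coding genes whose mean signal lay in the range of the members, 2.70% were lower. Because earlier results on this contrast chose the genes, nothing is read from that gap. The median difference of the 40 genes was -1.42, and 39 of them lay below 0, against 25.0% of coding genes; Cx3cr1 alone lay above. After centring on the median of coding genes 32 were at least 2-fold lower, against 3.51% of coding genes.

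Depth of signal limits these folds. On both arrays 5 of the 40 genes were above the control limit (Cd53, Ctss, Lgmn, C1qb and Lyz2), 23 were above it on the circPan3+/+ array alone, none on the circPan3-/- array alone, and 12 on neither. With values under the limit set to it, 11 genes were at least 2-fold lower, against 0.406% of coding genes: Cd53, Clec4n, Clec7a, Fcgr3, Fcer1g, Cybb, Itgam, Ms4a4a, Ctss, Lgmn and Cd68. Each gene was also placed among the negative controls of its own array, which needs no common scale. All 40 stood at a lower percentile on the circPan3-/- array, but so did 62.0% of coding genes, and 61.8% of those in the range of the members' mean signal, so a gene such as Cx3cr1 with a difference above 0 can stand lower there (83.7 to 81.0). The median percentile of the 40 was 97.1 on the circPan3+/+ and 83.7 on the circPan3-/- array, and that of all coding genes 84.9 and 81.4. In such bulk RNA, fewer macrophages or neutrophils in the sort and less of each RNA per cell cannot be told apart.

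**Figure D1:**
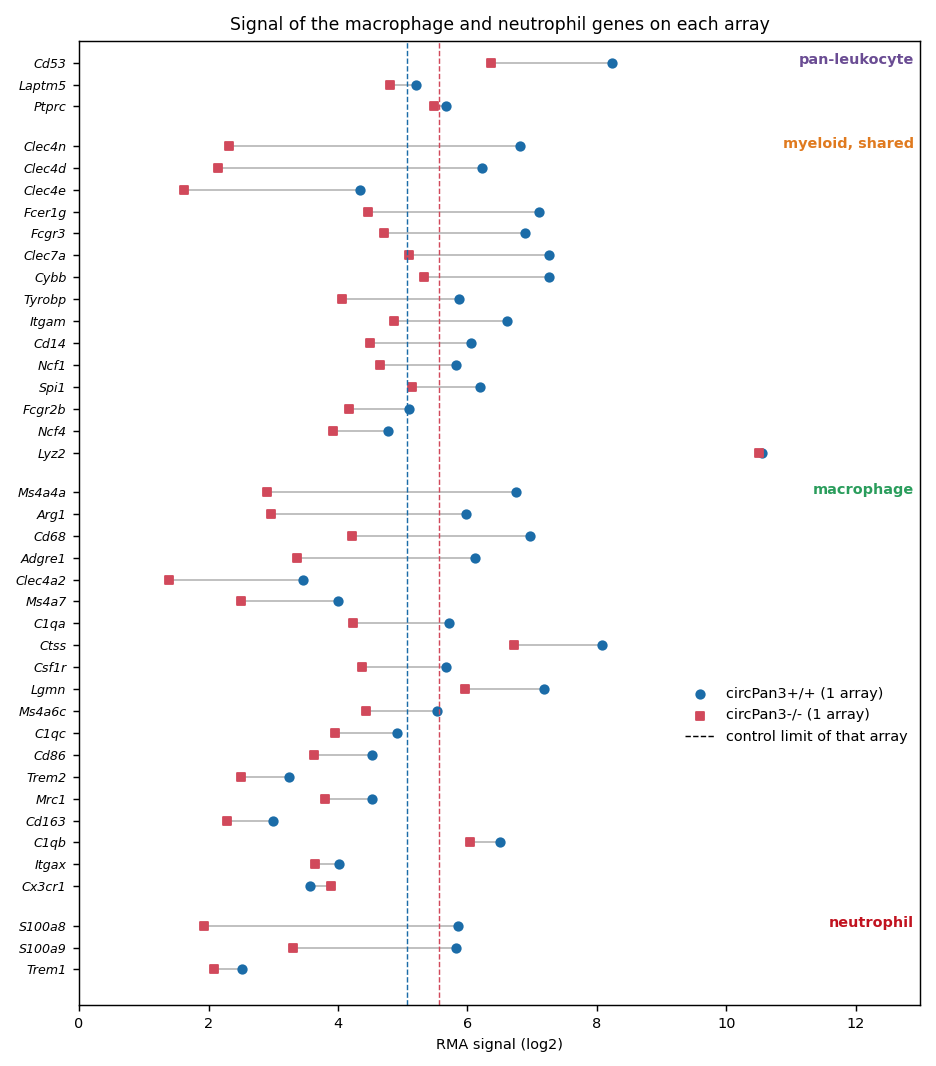
Signal of the 40 genes (log2, x axis) on the circPan3+/+ array (blue circles) and the circPan3-/- array (red squares), 1 array each, by group and ordered by difference; dashed lines are the control limits of 5.06 (blue) and 5.56 (red). In 39 of the 40 genes the red square lies to the left, with the widest gap in Clec4n, and Lyz2 alone sits near 10.5 on both arrays.

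**Figure D2:**
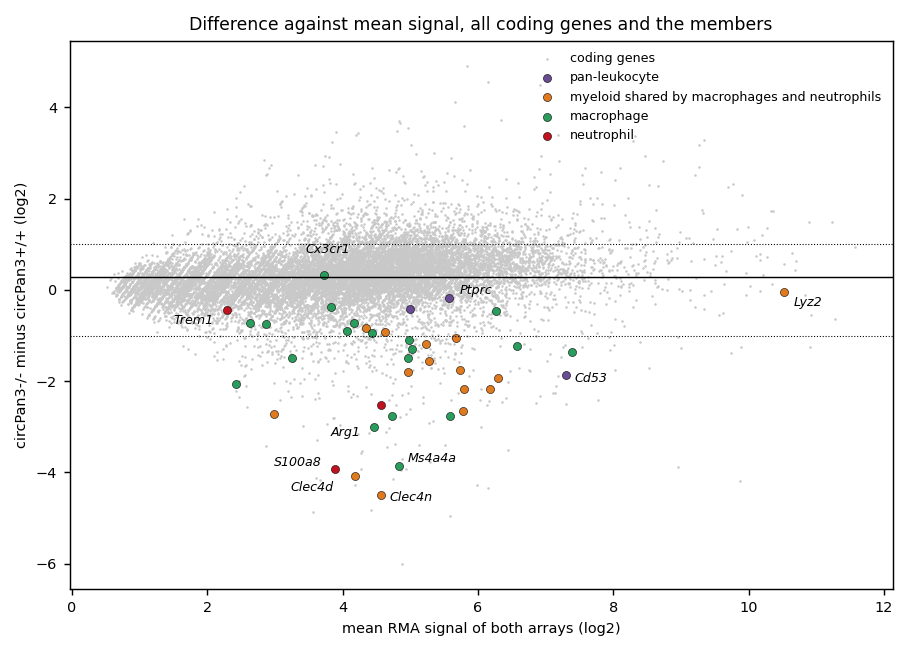
Difference between the arrays (log2, y axis) against the mean signal of both (log2, x axis) for 19228 coding genes (grey) and the 40 genes (colours by group); the solid line is the coding median of 0.27 and dotted lines mark 2-fold. The shared myeloid and macrophage genes spread from the common cloud down to Clec4n at -4.50, and Lyz2 lies at -0.03.

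The C-type lectin receptors, which bind sugars and glycolipids of microbes, included the gene with the lowest difference of the 40, and all 5 were at least 2-fold lower with a median of -2.72. Clec4n, the fungal mannan receptor Dectin-2, had a signal of 6.82 on the circPan3+/+ and 2.32 on the circPan3-/- array (-4.50, at least 2.40-fold), and 4 coding genes had a lower difference. Clec4d, which pairs with other lectins of this group at the cell surface, had 6.23 and 2.15 (-4.08, at least 1.59-fold). On the circPan3-/- array both lay near the middle of the negative controls, at percentiles 50.7 and 46.4, against 98.2 and 97.7 on the circPan3+/+ array. Clec7a, the beta-glucan receptor Dectin-1, had 7.26 and 5.09 (-2.16, at least 3.25-fold), the largest bound of the 5. Clec4e, the glycolipid receptor Mincle, had 4.35 and 1.63 (-2.72), and Clec4a2, an inhibitory lectin, had 3.46 and 1.39 (-2.07). Both of these were under the limits on the 2 arrays, so no fold is given.

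Among related lectin genes, the lower ones past 2-fold belonged to the Clec4a group. Of 10 other Clec4, Clec9 and Clec12 genes, a family added after the data were seen, 3 were at least 2-fold lower and 0 higher: Clec4a1 at -1.95, Clec4a4 at -1.45 and Clec4a3 at -1.23. Clec9a, a receptor of cross-presenting dendritic cells, stood at -0.85. Clec4g at 0.02 and Clec4f at 0.63, lectins known from liver cells, lay at or above 0. All 10 were under the limits on both arrays, and the Clec4a genes are close copies that probes may not tell apart.

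The Ms4a genes encode 4-span membrane proteins, and the 3 macrophage members were each at least 2-fold lower. Ms4a4a, known from alternatively activated macrophages, had 6.76 and 2.91 (-3.85, at least 2.30-fold). Ms4a7 had 4.0 and 2.50 (-1.50, both under the limits), and Ms4a6c had 5.52 and 4.43 (-1.09, no fold, because the brighter value is under the other array's limit). Ms4a4a was thus the only 1 of the 3 with a bound. Among 17 further Ms4a genes, 2 were at least 2-fold lower, Ms4a6d with 6.20 and 3.09 (-3.11, at least 1.56-fold) and Ms4a4c with 5.41 and 3.28 (-2.13, no fold), and the median was -0.20. Those known from other cells were within 2-fold: the T cell gene Ms4a4b at -0.60, the mast cell gene Ms4a2 at -0.40, the B cell gene Ms4a1 at -0.20 and the gut-expressed Ms4a18, Ms4a10 and Ms4a8a at 0.26, -0.17 and -0.20, the last 3 above the limit on both arrays. Ms4a genes resemble each other, and sharing of probes among them was not tested.

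Among Fc receptors and their adaptors, 3 of 4 were at least 2-fold lower. Fcer1g, the common gamma chain that gives Fc receptors, Dectin-2 and Mincle their ITAM, had 7.11 in circPan3+/+ and 4.46 in circPan3-/- cells (-2.65, at least 2.93-fold). Fcgr3, the activating low-affinity receptor for IgG that needs this chain, had 6.88 and 4.70 (-2.18, at least 2.51-fold). Tyrobp, the adaptor DAP12 of the Trem receptors, had 5.87 and 4.07 (-1.80, at least 1.24-fold). The inhibitory receptor Fcgr2b, which B cells also express, had 5.09 and 4.16 (-0.93, no fold) and lay just short of 2-fold. Outside the 40 genes, the high-affinity receptor Fcgr1 stood at -1.51 and Fcgr4 at -0.37, both under the limits, and Fcgrt, the IgG transport receptor of epithelium and endothelium, at 0.50.

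Kinases and adaptors that act behind these receptors differed less. Of 8 measured ITAM signalling genes, 1 was at least 2-fold lower and 0 higher, with a median of -0.26, and 7 were under the limits on both arrays. The phosphatase gene Ptpn6, the one above a limit, had 5.33 and 5.18 (-0.15). The kinase genes Syk and Btk, named after their values were seen, stood at -0.38 and -1.17.

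The phagocyte NADPH oxidase makes superoxide from a membrane core and cytosolic subunits. Cybb, the catalytic core, had 7.26 and 5.33 (-1.93, at least 3.25-fold). Of the cytosolic subunits, the organiser Ncf1 had 5.82 and 4.65 (-1.18, at least 1.20-fold) and Ncf4 4.77 and 3.93 (-0.84, both under the limits). All 3 were lower, and Cybb and Ncf1 were past 2-fold. Genes of the oxidase and its relatives that are not restricted to phagocytes lay nearer to 0 or above it, with 0 of 5 at least 2-fold lower and a median of 0.01. The partner subunit Cyba had 6.13 and 5.65 (-0.48) and the small GTPase Rac2 6.47 and 5.70 (-0.78), whereas the epithelial oxidase gene Duox2 had 5.53 and 6.48 (0.95) and its maturation factor Duoxa2 6.52 on both arrays. Nox1, the colonic epithelial oxidase, stood at 1.82 with both values under the limits, and was the 1 gene of the 5 past 2-fold upward.

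Lysosomal genes are the place where both values could most often be measured. Ctss, a cysteine protease of antigen-presenting cells, had a signal of 8.08 on the circPan3+/+ and 6.71 on the circPan3-/- array, 2.57-fold lower (-1.36). The asparaginyl endopeptidase gene Lgmn had 7.19 and 5.96 (-1.23, 2.34-fold). Both were above the control limit on the 2 arrays, so these folds are not bounds. Cd68, a glycoprotein of macrophage lysosomes, had 6.97 and 4.21 (-2.76, at least 2.66-fold). Laptm5, a lysosomal membrane protein of all blood cells, had 5.21 and 4.80 (-0.41, no fold).

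Lyz2 was nearly equal on both arrays. The signal of this lysozyme gene of macrophages and neutrophils, which Paneth cells can also express, was 10.55 on the circPan3+/+ and 10.51 on the circPan3-/- array, and the difference of -0.03 turned to 0.15 after quantile normalization and was -0.68 after loess. Its near-identical neighbour Lyz1, the lysozyme of Paneth cells, had 10.15 and 11.63 (1.49), and probes may not separate the pair. Paneth genes had a median of 2.25: 6 of 7 were past 2-fold upward, 0 downward. The other, Guca2b with 8.49 and 8.11 (-0.38), is not restricted to Paneth cells. The defensin genes Defa24 and Defa17 had no row of their own and are left out. The 7 genes had a summed signal of 2329 on the circPan3+/+ and 8365 on the circPan3-/- array, on a linear scale. The part of Paneth RNA in the Lyz2 value was not tested.

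Complement C1q, which tags dead cells and immune complexes, is built from 3 chains made together by macrophages, and the 3 genes were lower to unequal degrees. C1qa had 5.71 and 4.23 (-1.48, at least 1.11-fold), C1qb 6.50 and 6.04 (-0.46, or 1.38-fold, above the limit on both arrays) and C1qc 4.91 and 3.95 (-0.95, both under the limits). Of the 3, C1qa was past 2-fold, and the chain with the best measured signal differed least. The C1r and C1s protease genes, C1ra, C1rb, C1s1 and C1s2, stood between 0.45 and 1.04, all under the limits.

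Surface receptors and integrins of macrophages and neutrophils gave a mixed picture: 4 of 11 were at least 2-fold lower, 7 were neither, and the median was -0.75. Itgam and Cd14 were grouped as shared by both cell types, Trem1 as a neutrophil gene and the rest as macrophage genes. Adgre1, the macrophage adhesion receptor bound by the F4/80 antibody, had 6.12 and 3.36 (-2.75, at least 1.47-fold). Itgam, the alpha chain of complement receptor Mac-1, had 6.61 and 4.86 (-1.75, at least 2.07-fold). Cd14, the lipopolysaccharide co-receptor, had 6.06 and 4.49 (-1.56, at least 1.42-fold). Csf1r, the receptor for macrophage colony-stimulating factor on which most tissue macrophages depend, had 5.67 and 4.38 (-1.29, at least 1.08-fold). These 4 were above the limit in circPan3+/+ cells.

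The other 7 surface receptors were under the limits on both arrays. The T cell co-stimulator Cd86 had 4.52 and 3.62 (-0.90) and the mannose receptor Mrc1 4.53 and 3.80 (-0.73). The lipid-sensing receptor Trem2 had 3.24 and 2.49 (-0.75), and Trem1, an amplifier of inflammation on neutrophils and monocytes, 2.51 and 2.08 (-0.43). Cd163, the scavenger receptor for haemoglobin, had 2.99 and 2.28 (-0.71), and Itgax, an integrin chain of dendritic cells and gut macrophages, 4.02 and 3.65 (-0.37). Cx3cr1, the fractalkine receptor that marks resident gut macrophages, had 3.56 and 3.89 (0.33), and was the single gene of the 40 above 0. Cx3cr1, Cd163 and Mrc1, markers often used for resident gut macrophages, were thus at levels that the negative controls also reached on both arrays.

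Integrin genes went in both directions. Itgb2, the beta chain that pairs with Itgam, had 5.96 and 4.39 (-1.57, at least 1.33-fold), near the difference of Itgam. Itgal, another partner of Itgb2, stood at -0.12 with both values under the limits. Over 24 integrin genes other than Itgam and Itgax the median was 0.09, with 3 at least 2-fold lower and 1 higher. The epithelial chains Itga6, with 6.03 and 7.02 (0.99), and Itga2, with 5.14 and 6.18 (1.04), stood at the top.

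**Figure D3:**
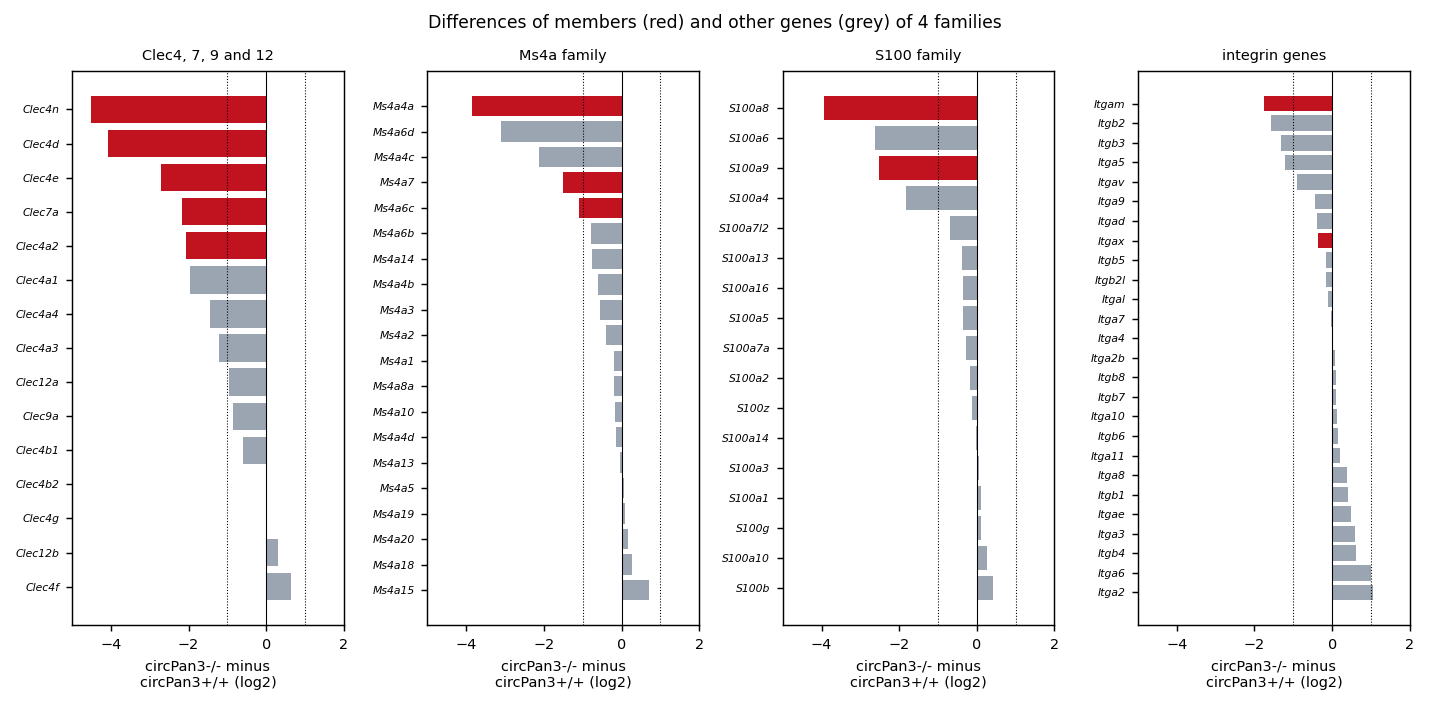
Differences between the arrays (log2, x axes) for coding genes of 4 families, with the genes followed here in red and their relatives in grey; dotted lines mark 2-fold. The red bars other than Itgax (-0.37) and some relatives (among them Clec4a1, Ms4a6d, S100a6 and Itgb2) pass the left dotted line, while most other relatives stay between the dotted lines.

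The lineage factor was just past 2-fold, and the pan-leukocyte genes were uneven. Spi1, encoding PU.1, had 6.20 and 5.14 (-1.06, at least 1.57-fold). Ptprc, the CD45 phosphatase carried by all white blood cells, had 5.67 and 5.49 (-0.18, at least 1.08-fold). Cd53, a tetraspanin of leukocytes, had 8.23 and 6.37, both above the limit, a difference of -1.86 or 3.63-fold. The 3 pan-leukocyte genes (Ptprc, Laptm5 and Cd53) had a median of -0.41, against -1.80 for the 15 shared myeloid genes and -1.23 for the 19 macrophage genes; the gap between these medians has no test.

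A wider set of 16 leukocyte-wide genes gave a similar reading, with 2 at least 2-fold lower, 0 higher and a median of -0.49. The 2 were Itgb2 and Hcls1, a signalling adaptor of blood cells with 6.0 and 4.88 (-1.12, at least 1.36-fold). All 16 lay below 0, from Itgb2 at -1.57 to Itgal at -0.12, and 9 were under the limits on both arrays. Beside this, genes of T, NK and innate lymphoid cells (3 of 15 at least 2-fold lower) had a median of -0.18, and B and plasma cell genes (0 of 9) one of -0.20. Both medians rest largely on dim genes, since 12 of the 15 and 6 of the 9 were under the limits on both arrays. The brighter T and NK genes were all lower: Gzma with 8.15 and 7.10 (-1.05, 2.07-fold), Il7r at -2.03 and Gzmb at -0.69. Among the brighter B and plasma cell genes, Cd79b stood at -0.85, Mzb1 at -0.39 and Jchain at 0.55. Whether lymphocyte genes differed less than myeloid genes was not tested.

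Neutrophil genes were few among the 40 and uneven. S100a8 and S100a9 encode the 2 chains of calprotectin, an abundant cytosolic protein of neutrophils that starves microbes of metal ions. S100a8 had 5.85 in circPan3+/+ and 1.92 in circPan3-/- cells (-3.93, at least 1.23-fold) and S100a9 5.82 and 3.31 (-2.51, at least 1.20-fold). Both circPan3+/+ values were close to the limit, so the bounds are small although the measured differences are large. Of 15 other S100 genes, 2 were at least 2-fold lower, S100a6 with 6.30 and 3.69 (-2.61, at least 1.68-fold) and S100a4, under both limits, at -1.83. The remaining 13 were within 2-fold.

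Most other neutrophil genes were too dim to measure on either array. Of 18 measured, 5 were at least 2-fold lower, 0 higher and 13 neither, with a median of -0.53, and 15 were under the limits on both arrays. Mmp8, neutrophil collagenase, had 7.88 and 1.89 (-6.0, at least 5.03-fold), the lowest difference of all coding genes. The gelatinase gene Mmp9 had 5.90 and 3.48 (-2.42, at least 1.27-fold) and the granule protein gene Ngp 5.27 and 1.97 (-3.29, no fold). The surface marker Ly6g and the chemokine receptor gene Cxcr2, named after their values were seen, stood at -1.96 and -0.94, and the azurophil granule genes Elane and Mpo at -0.18 and -0.59, all under both limits. Csf3r, the receptor for the neutrophil growth factor, likewise stood at -0.81. Joined with S100a8, S100a9 and Trem1, the neutrophil genes had a median of -0.59 over 21, against -2.51 for those 3 alone.

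Arg1, the arginase of alternatively activated macrophages, had 5.97 and 2.96 (-3.01, at least 1.33-fold). In a list of 19 further macrophage genes, 11 were at least 2-fold lower and 0 higher, and the median of -1.09 was close to that of the 19 macrophage genes followed here. That list too was written with earlier results of these data known, so nothing is read from the closeness. On both arrays 11 of its genes were under the limits. With values under the limit set to it, 2 were at least 2-fold lower. Gpnmb, a lysosomal glycoprotein of lipid-laden macrophages, had 6.89 and 2.98 (-3.92, at least 2.53-fold). The pore protein gene Mpeg1 had 6.19 and 3.18 (-3.02, at least 1.56-fold), and the scavenger receptor gene Msr1 5.44 and 2.49 (-2.95, no fold). Lilrb4a, an inhibitory receptor named after its values were seen, had 8.24 and 5.98, both above the limit (-2.26, or 4.80-fold). Maf, a transcription factor also used outside macrophages, went the other way, with 5.45 and 6.41 (0.96).

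Genes of related myeloid cells ranged from mostly lower, in monocytes, to mostly within 2-fold, in dendritic cells. Of 9 monocyte genes, 7 were at least 2-fold lower, with a median of -1.22, among them Fn1 at -1.75 (at least 1.29-fold) and the surface protein gene Ly6c2 with 8.45 and 7.43 (-1.02, 2.03-fold), which endothelium and T cells also express; the chemokine receptor gene Ccr2 had 0.01 between values under the limits, and Plac8, also an epithelial gene, 0.22. Of 10 Toll-like receptor genes and their partners, 5 were at least 2-fold lower with a median of -1.09, and Tlr2 had 5.79 and 4.52 (-1.28, at least 1.18-fold). Of 10 dendritic cell genes, 0 were at least 2-fold apart, with a median of -0.14, and Irf8 stood at 0.52 and Ccr7 at -0.54. On both arrays 5 of the 9 monocyte, 8 of the 10 Toll-like receptor and 8 of the 10 dendritic cell genes were under the limits. Their medians thus rest largely on values that cannot be told from the negative controls. All 10 mast cell, basophil and eosinophil genes were under the limits on both arrays; their median was 0.46, and Mcpt1 and Mcpt2 were past 2-fold upward. Myeloid growth factors and their receptors held 0 of 6 past 2-fold as deposited, with a median of -0.07 and 5 of the 6 under the limits on both arrays.

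**Figure D4:**
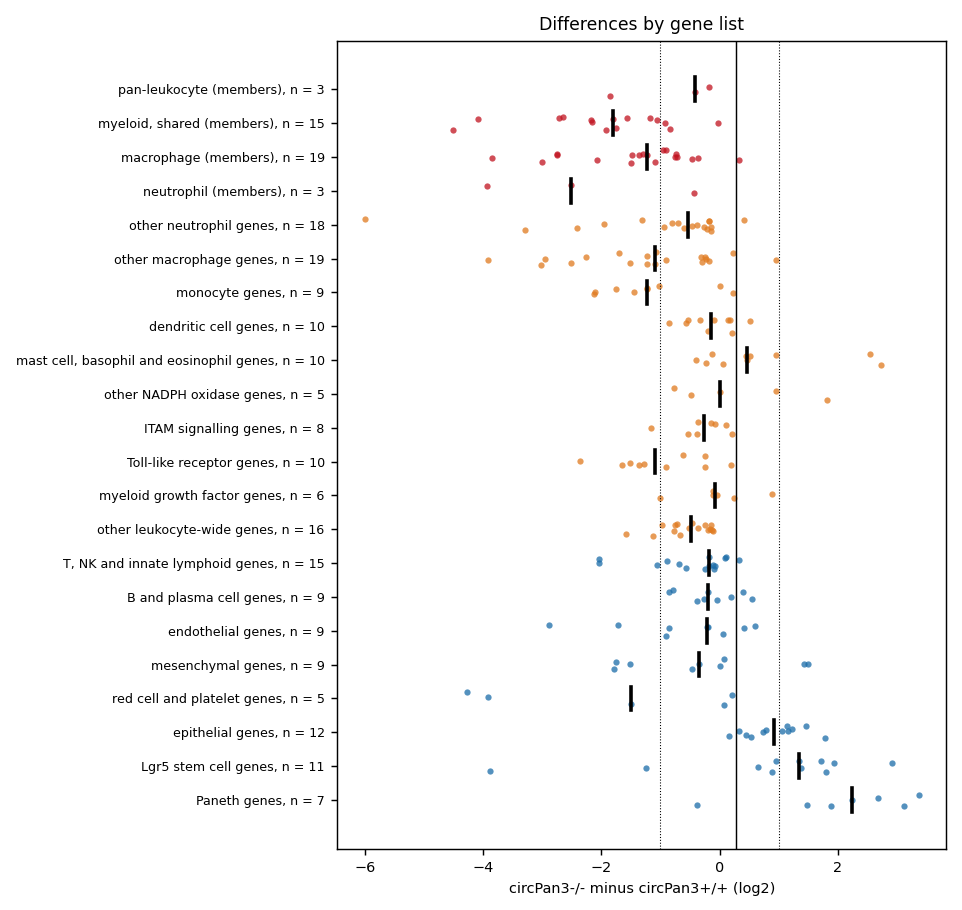
Differences between the arrays (log2, x axis) of each gene in the 4 groups followed here (red), related myeloid and leukocyte lists (orange) and lists of other cell types (blue); thick bars are list medians, the solid line is the coding median of 0.27 and dotted lines mark 2-fold. Medians left of the dotted line at -1 are those of the shared myeloid, macrophage and neutrophil genes followed here and of the other macrophage, monocyte and Toll-like receptor lists. That of the red cell and platelet list, another cell type, lies there too. Dendritic cell genes lie near 0, and epithelial and Paneth medians lie to the right of the solid line.

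Markers of other cells differed too on the same pair of arrays. Of 10 red cell and platelet genes listed, 5 had a row of their own, and the haemoglobin genes listed did not. Of the 5, 3 were at least 2-fold lower and 0 higher. Their median of -1.49, which is the value of Alas2 alone, was below the -1.23 of the 19 macrophage genes followed here. The platelet chemokine genes were far lower, Pf4 with 8.12 and 3.85 (-4.27, at least 5.92-fold) and Ppbp with 6.23 and 2.31 (-3.92, at least 1.59-fold). Alas2 stood at -1.49 and the platelet receptor genes Itga2b and Gp9 at 0.07 and 0.20, all under both limits. Macrophages can also express Pf4. The 9 endothelial genes, of which 2 were at least 2-fold lower and 0 higher, had a median of -0.21 and summed linear signals of 526 and 280. Of these, 6 lay below 0 and 4 were under the limits on both arrays. Emcn had 6.78 and 3.90 (-2.88, at least 2.34-fold), Kdr -1.71 (at least 1.39-fold) and Plvap -0.90 (at least 1.82-fold). The 9 mesenchymal genes, of which 3 were lower and 2 higher, had a median of -0.36 and sums of 848 and 406. Among them 5 were under both limits. Sparc stood at -1.78 (3.44-fold), Vim at -1.75 (3.37-fold), Dcn at -1.52 (at least 1.80-fold) and Acta2 at 1.49 (at least 2.42-fold). Of 12 epithelial genes, 6 were past 2-fold upward and 0 downward. Their median was 0.92, and the sum of their linear signals was 2890 on the circPan3+/+ and 5161 on the circPan3-/- array. Lgr5 stem cell genes went both ways, 6 of 11 higher and 2 lower, Lgr5 among the latter. The sum over all 40 genes was 4356 on the circPan3+/+ and 2355 on the circPan3-/- array on the same scale. Without Lyz2 it was 2861 and 896. The part of a different cell makeup of the 2 sorts in any of these differences was not tested.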

How the data were processed

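Total RNA of GFP-sorted intestinal stem cells was measured on 2 Clariom D arrays, 1 per genotype. Affymetrix Power Tools and RMA are named in the submitters' processing notes; the sources used here give neither their versions nor a genome build. The values deposited by the authors are treated as log2 signals, since RMA gives log2 values and they run from -0.18 to 13.07. Of 72688 rows, 31258 had 1 gene after synonyms were merged through RefSeq's gene table, 1492 had several and were not named, 33206 clusters had none and 6732 were controls. The brightest row stood for a gene. The members and all lists were chosen with earlier results of these data known; families were added after the data were seen. From other lists, the rule allowed up to 3 genes furthest apart in each direction with the brighter value above its limit, and Lgr5, Epcam and Lyz1 as checks of the sort. Some genes that the rule allowed, as in the epithelial, stem cell and Paneth lists, are not named. The further genes were named after their values were seen.

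With 1 array per genotype no test was run, and genes are described by a 2-fold rule. The control limit is the 95th percentile of negative control rows. Having 2 arrays limits the precision. Alternatives were centring, loess (span 0.3), quantile normalization, level filters, the mean of rows, 1.5-fold, limits at percentiles 90 and 99 and, added later, unshared values only and joined lists. The functions were tested on simulated data. Python 3.11.15, pandas 2.3.3 and statsmodels 0.14.6 were used.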

Additional observations from a re-analysis of the deposited data

How the results depend on the processing

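The count of genes at least 2-fold lower, 26 of 40, was 31 or 32 under centring, loess and quantile normalization and 33 at 1.5-fold. It depended most on the control limit: it was 20 with a limit at percentile 90, 11 at percentile 95 and 0 at percentile 99, because at the highest limit 2 genes were left with a fold. The count of genes at least 2-fold higher was 0 under each alternative run. The pan-leukocyte median of -0.41 was -0.69 after centring, -0.87 after loess and -0.77 after quantile normalization. The neutrophil median of -2.51 rests on 3 genes: it was -1.47 over the 2 whose circPan3+/+ value no other row shared, and -0.59 when joined with the other neutrophil genes. The shared myeloid and macrophage medians stayed within 1.5 times their value under each alternative for which medians were taken, from -1.80 to -2.26 and from -1.16 to -1.72. No group median was taken with values under the control limit set to it. How far these medians depend on that limit was therefore not tested. Taking the mean of rows changed nothing because each of the 40 genes has 1 row. No paired analysis was possible because there is 1 array per genotype. No replicate could be left out for the same reason. The signal limits the rest: 35 of the 40 genes had a value under the control limit on at least 1 array.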
